A study of Homo sapiens with 6 samples.

Results

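The keratin and claudin genes of PC-9 cells were examined with and without knockdown of RBM10. Members were the gene symbols made of KRT or CLDN, a number and at most 1 further letter. Of 26334 gene symbols in the files, 80 fit this rule, of which 56 were keratins and 24 were claudins. The rule used the symbols alone, although it was set with earlier results of these data known. PC-9 cells come from a human lung adenocarcinoma and carry a deletion within an exon of EGFR. Their RBM10 gene, which encodes an RNA-binding protein that regulates splicing, is wild type. The 3 conditions were a scrambled shRNA as control (shScr) and 2 shRNAs that target RBM10, named shRBM10#1 and shRBM10#2. RNA of each condition was sequenced in 2 libraries, 6 in all. All cells were cultured in serum-containing RPMI and were given no drug, and every library, the controls included, comes from this 1 cell line. The control group follows the labels (shScr), although the written methods speak of parental cells. Nothing states whether the libraries of a condition came from separate cultures, so p-values measure the spread between these libraries, which may be technical.

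Keratins are the intermediate filament proteins of epithelial cells, and a filament needs a type I (acidic) and a type II (basic) keratin as partners. KRT8 and KRT18 pair in simple epithelia, KRT5 and KRT14 in basal cells of stratified epithelia, KRT4 and KRT13 in the upper layers of mucosa, KRT1 and KRT10 in the upper epidermis, and KRT6 and KRT16 in activated or wounded epithelium. Claudins are membrane proteins with 4 passes through the membrane that form the strands of tight junctions and set which ions and solutes pass between cells. In bulk RNA, fewer cells that express a gene cannot be told apart from less RNA of it per cell.

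Depth lay between 31953729 and 37557507 expected counts per library (read counts as estimated by RSEM). RBM10 itself was at 38.5 and 45.7 TPM (a transcript level corrected for length and depth) with shScr, 28.4 and 25.8 with shRBM10#1, and 13.1 and 12.8 with shRBM10#2. Its log2 fold change (log2 FC) was -0.54 ± 0.067 (SE; FDR = 0.000228) with shRBM10#1 and -1.65 ± 0.0701 (FDR = 5.1e-08) with shRBM10#2. The mean fragment length implied by the effective lengths was 231.2 nucleotides in shScr replicate 2 and 264.9 to 281.2 in the other libraries. Beyond the keratins, the epithelial markers EPCAM (379 to 455 TPM) and CDH1 (111 to 134 TPM) were high in all 6 libraries. Markers of lung adenocarcinoma were near absent, with NKX2-1 at 0 to 0.39 TPM, NAPSA at 0.16 to 0.75 TPM and SFTPB at 0 to 0.03 TPM. Of other cell types, the 6 fibroblast markers summed to 2.93 to 2.96 TPM with shScr and 2.02 to 2.91 in the knockdown libraries, and the 5 leukocyte markers to 0.6 to 1.13 with shScr and 0.4 to 0.96 in the knockdown libraries. The 3 endothelial markers summed to 6.02 to 7.65 TPM with shScr, 10.3 to 12.7 with shRBM10#1 and 7.3 to 7.52 with shRBM10#2, mostly from CDH5. No marker was at 0 in every library, although SFTPB, DCN and LUM were among those that stayed under 3 counts. The part of these markers in the results below was not tested.

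KRT6A, KRT6B and KRT6C encode nearly the same protein and lie side by side on chromosome 12, and their sequences are shown because reads from one can be assigned to another. In GENCODE 29, the coding sequences of KRT6A and KRT6B are 97.5% identical over 1692 bases, with 42 differences and a longest identical run of 269 bases. Of all 75-base windows in KRT6A transcripts, 26.2% also occur in another gene, chiefly KRT6C and KRT6B, and for KRT6B the share is 34.9%. RSEM divides such reads by likelihood, so the split between these genes is uncertain, whereas their sum is less so. The stretches below are the 120 coding bases (positions 626 to 745 of the coding sequence, in exon 2 of 9) with the most differences, read from the minus strand of GRCh38, and capitals mark the 10 positions at which the genes are not all alike.
KRT6A (chr12:52491532-52491651): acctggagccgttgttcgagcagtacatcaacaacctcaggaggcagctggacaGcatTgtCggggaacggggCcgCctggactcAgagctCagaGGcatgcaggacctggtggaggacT
KRT6B (chr12:52450416-52450535): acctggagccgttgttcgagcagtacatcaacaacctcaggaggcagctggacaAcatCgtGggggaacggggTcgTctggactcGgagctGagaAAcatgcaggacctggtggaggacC
KRT6C (chr12:52472076-52472195): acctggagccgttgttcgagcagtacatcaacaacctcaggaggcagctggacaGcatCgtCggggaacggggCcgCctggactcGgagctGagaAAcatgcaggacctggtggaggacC
KRT6A and KRT6B differ at all 10 marked positions, so their reads can be told apart where they cover a marked position. Reads that fall in the identical runs, as at the start of this stretch, cannot.

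Of the 80 members, 32 passed the filter on low counts and were tested, 31 were silent, with under 3 counts in every library, and the other 17 were low. The 15 silent members with no count in any library can each have held up to 3 counts per library, the limit that a count of 0 allows. Among keratins, 23 were tested, 9 were low and 24 were silent. Simple epithelial keratins were nearly all present, since 4 of 5 were tested and KRT20, a keratin of gut and urothelium, reached only 6 counts. Each of the 4 basal keratins was tested, as were 3 of the 4 keratins of activated epithelium, KRT6C being low with at most 8.3 counts. Keratins of hair and of its inner root sheath made up most of the silent class. Of 17 hair keratins, 11 were silent (KRT31, KRT33A, KRT35 to KRT40, KRT82, KRT84 and KRT85), and of 9 inner root sheath keratins, 8 were (KRT25, KRT26, KRT28 and KRT71 to KRT75). The other silent keratins were KRT24, KRT42P, KRT76, KRT77 and KRT222.

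**Figure D1:**
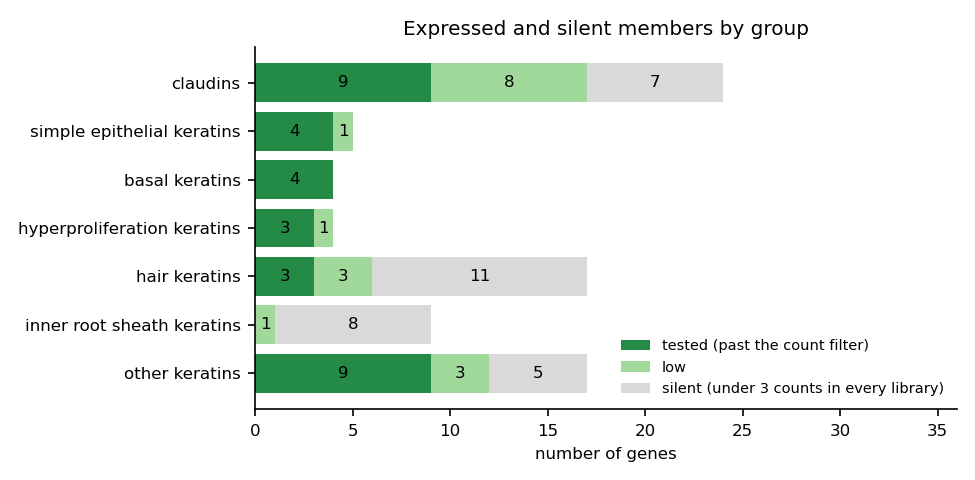
Number of members by group (horizontal axis, genes; bars stacked by class). Hair and inner root sheath keratins are mostly silent, with 11 of 17 and 8 of 9 genes, whereas 4 of 5 simple epithelial and 4 of 4 basal keratins were tested.

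The low keratins, with their highest count in any library, were KRT2 (8), KRT6C (8.3), KRT12 (3), KRT20 (6), KRT27 (3), KRT33B (3), KRT34 (8), KRT79 (7) and KRT83 (8). Of these, KRT34, a hair keratin singled out after its values were seen, had 8 and 5 counts with shScr, 0 and 0 with shRBM10#1 and 1 and 0 with shRBM10#2. Among the 24 claudins, 9 were tested (CLDN1, CLDN3, CLDN4, CLDN7, CLDN8, CLDN9, CLDN12, CLDN15 and CLDN23). Silent claudins numbered 7 and included CLDN18, the claudin of stomach and lung alveoli, together with CLDN10, CLDN17, CLDN19, CLDN22, CLDN24 and CLDN25. The low claudins were CLDN2 (3 counts), CLDN5 (5), CLDN6 (4), CLDN11 (3), CLDN14 (3), CLDN16 (7), CLDN20 (3) and CLDN34 (3). CLDN5, the claudin of endothelium, thus stayed at or below 5 counts in every library, although CDH5 was measured.

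Of the tested members, 16 averaged 10 TPM or more. Keratin transcripts summed to 25355 and 27036 TPM with shScr, 28764 and 26282 with shRBM10#1, and 22473 and 23371 with shRBM10#2, which is 2.25% to 2.88% of all transcripts. KRT8, KRT18, KRT19 and KRT7 made up 98.7% to 98.9% of the keratin sum in every library. Claudin transcripts summed to 1168 and 1214 TPM with shScr, 1101 and 1156 with shRBM10#1, and 1083 and 1055 with shRBM10#2. CLDN4 and CLDN7 together held 88.3% to 90.5% of the claudin sum. KRT8 ranked from 2 to 7 among all gene symbols in TPM across the libraries, and KRT18 ranked from 6 to 14. PC-9 cells of all 3 conditions thus held much more RNA of simple epithelial keratins than of any other keratin class, and much more of CLDN4 and CLDN7 than of any other claudin.

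**Figure D2:**
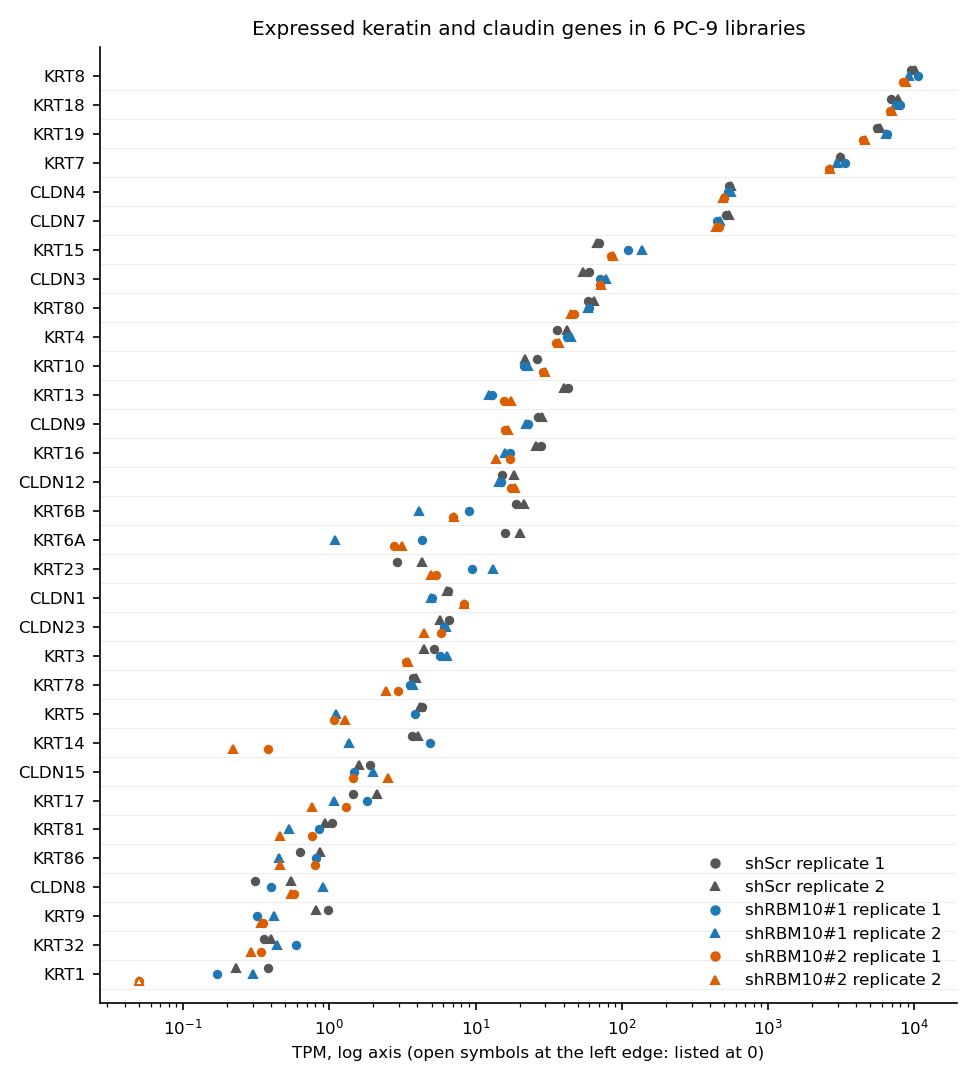
TPM (horizontal log axis) of the 32 tested members, ordered by mean, with 1 symbol per library, colored by condition. KRT8, KRT18, KRT19 and KRT7 sit at the top, with KRT7 between 2595 and 3336 TPM, and KRT1 is listed at 0 in both shRBM10#2 libraries.

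With shRBM10#1, 10 of the 32 tested members passed an FDR below 0.05 against shScr, beside 14.0% of the 14217 genes tested, and 5 rose and 5 fell, beside 7.13% and 6.91% of all genes. An absolute log2 FC above 1 was also met by 5 members, beside 1.88% of all genes. With shRBM10#2, 16 members passed, beside 25.9% of all genes, of which 4 rose and 12 fell, beside 12% and 13.9% of all genes, and 7 met both criteria, beside 1.3% of all genes. Among the 7, KRT1 and KRT14 passed the count filter through the shScr and shRBM10#1 libraries. Both shRNAs shared the shScr libraries, so the comparisons are not independent. The median log2 FC of the 23 tested keratins was -0.037 with shRBM10#1 and -0.455 with shRBM10#2, beside 0.008 and 0.005 over all genes. For the 9 tested claudins the medians were -0.004 and 0.07. With both shRNAs, 5 members fell (KRT6A, KRT6B, KRT9, KRT13 and KRT16), beside 3.46% of all genes, and 3 rose (CLDN3, KRT15 and KRT23), beside 2.62%. KRT19 alone passed in opposite directions, as did 0.535% of all genes. The 5 members that fell with both summed to 107 and 108 TPM with shScr, 43.6 and 33.8 with shRBM10#1, and 43.1 and 41.8 with shRBM10#2. They were chosen by their fall in these same libraries, so the lower sum follows from the choice.

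**Figure D3:**
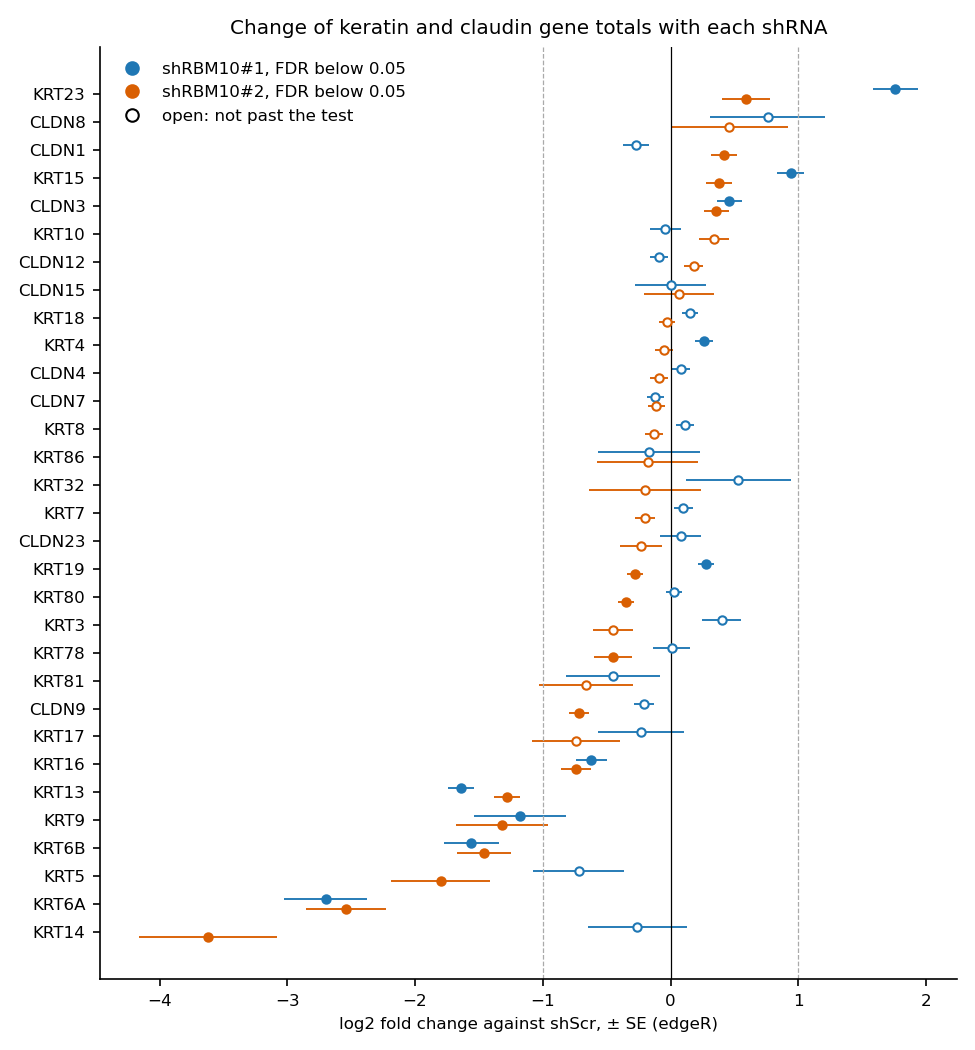
Log2 FC against shScr (horizontal axis, ± SE) of 31 tested members with shRBM10#1 (blue) and shRBM10#2 (orange); filled symbols passed an FDR below 0.05 and dashed lines mark the log2 FC criterion of 1. KRT1, at 0 counts with shRBM10#2, is left out, and KRT6A, KRT6B, KRT9 and KRT13 lie below -1 with both shRNAs.

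Of the abundant simple epithelial keratins, KRT19 passed the test with each shRNA and the other three with neither. KRT8, the type II keratin of simple epithelia, was at 9433 and 10066 TPM with shScr, 10597 and 9187 with shRBM10#1, and 8355 and 8783 with shRBM10#2. Its shScr and shRBM10#1 values overlapped, and its log2 FC of 0.11 ± 0.0706 (FDR = 0.355) and -0.13 ± 0.0706 (FDR = 0.191) did not pass. KRT18, its type I partner, was at 6951 and 7762 TPM with shScr, 7978 and 7381 with shRBM10#1, and 6846 and 7086 with shRBM10#2, with a log2 FC of 0.15 ± 0.062 (FDR = 0.143) and -0.03 ± 0.062 (FDR = 0.793). KRT7, a type II keratin of glandular ducts and airways, was at 3118 and 3089 TPM with shScr, 3336 and 2946 with shRBM10#1, and 2595 and 2638 with shRBM10#2. The KRT7 log2 FC was 0.1 ± 0.0747 (FDR = 0.421) and -0.2 ± 0.0747 (FDR = 0.0708), with both shRBM10#2 libraries below both shScr libraries. KRT19, a type I keratin of ducts that can stand in for KRT18, was at 5530 and 5790 TPM with shScr, 6544 and 6441 with shRBM10#1, and 4420 and 4608 with shRBM10#2. It rose by 0.28 ± 0.0643 with shRBM10#1 (FDR = 0.012) and fell by 0.28 ± 0.0643 on the log2 scale with shRBM10#2 (FDR = 0.00842), and the 3 conditions did not overlap. The rise was lost without shScr replicate 2 (FDR = 0.0784) or in a fit on the 4 libraries compared (0.0575), and the fall without shScr replicate 1 (0.0501), shRBM10#2 replicate 1 (0.144) or shRBM10#2 replicate 2 (0.076). KRT8 and KRT18 overlap at their ends on opposite strands (1084 bases in GENCODE 29), and whether the libraries kept the strand is not given in the sources used here. For the same reason KRT7 and its antisense RNA KRT7-AS (9% of 75-base windows of KRT7), and KRT13 and its antisense AC019349.1 (16.7%), cannot be told apart where they overlap if the strand was not kept.

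The ratio of KRT8 to KRT18 TPM was 1.36 and 1.3 with shScr, 1.33 and 1.24 with shRBM10#1, and 1.22 and 1.24 with shRBM10#2. The difference in log2 ratio from shScr was -0.045 with shRBM10#1 (exact two-sided permutation p = 0.667) and -0.109 with shRBM10#2 (exact permutation p = 0.333, the smallest that 2 against 2 libraries allow). For the 4 knockdown libraries together it was -0.077 (exact permutation p = 0.267, where 0.133 is the smallest possible). The smallest p of these tests lies above 0.05, so they cannot show a change.

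The mucosal keratin KRT13 and, of the keratins of activated epithelium, KRT6A, KRT6B and KRT16 fell with both shRNAs. KRT13, the type I keratin of the upper layers of non-cornified stratified epithelium, was at 43 and 40 TPM with shScr, 12.9 and 12.4 with shRBM10#1, and 15.7 and 17.4 with shRBM10#2. Every knockdown library lay below both shScr libraries, and the log2 FC was -1.64 ± 0.104 (FDR = 2.07e-06) with shRBM10#1 and -1.28 ± 0.101 (FDR = 3.12e-05) with shRBM10#2. KRT4, its usual type II partner, was at 36.2 and 41.9 TPM with shScr, 42.5 and 44.8 with shRBM10#1, and 35.5 and 37 with shRBM10#2, with a log2 FC of 0.26 ± 0.0714 (FDR = 0.0312) and -0.05 ± 0.0716 (FDR = 0.671). The rise of KRT4 passed in 7 of 13 alternatives, with an FDR of up to 0.155 (without shRBM10#1 replicate 2), and was lost when any library other than shRBM10#1 replicate 1 was left out.

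KRT6A, a type II keratin switched on in wounded and hyperproliferative epithelium, was at 16 and 20 TPM with shScr, 4.27 and 1.09 with shRBM10#1, and 2.79 and 3.13 with shRBM10#2. Its log2 FC was -2.7 ± 0.323 (FDR = 0.000185) and -2.54 ± 0.314 (FDR = 0.000296). KRT6B was at 19 and 21.4 TPM with shScr, 8.95 and 4.1 with shRBM10#1, and 6.96 and 7.15 with shRBM10#2, a log2 FC of -1.56 ± 0.216 (FDR = 0.000477) and -1.46 ± 0.212 (FDR = 0.000691). In both genes the knockdown libraries lay below both shScr libraries, and shRBM10#1 replicate 2 was the lowest of all. The sum of KRT6A, KRT6B and KRT6C, which does not depend on how shared reads are split among them, was 35.1 and 41.6 TPM with shScr, 13.4 and 5.27 with shRBM10#1, and 9.75 and 10.4 with shRBM10#2. KRT6A made up 45.8% and 48.3% of the KRT6A and KRT6B sum with shScr and 21% to 32.3% in the knockdown libraries. KRT16, the type I partner of KRT6, was at 28 and 25.7 TPM with shScr, 17.1 and 15.8 with shRBM10#1, and 17.3 and 13.8 with shRBM10#2. It fell by 0.62 ± 0.119 (FDR = 0.00408) and 0.74 ± 0.119 on the log2 scale (FDR = 0.00115), with no overlap between knockdown and shScr libraries, and the call with shRBM10#1 was lost without shScr replicate 1 (FDR = 0.0529). Without shRBM10#1 replicate 2, the log2 FC with that shRNA was the smallest of all alternatives, at -2 for KRT6A and -1.1 for KRT6B, and both still passed.

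Among basal keratins, KRT5 and KRT14 fell with shRBM10#2, while KRT15 rose with both shRNAs. KRT5, the type II basal keratin, was at 4.29 and 4.19 TPM with shScr, 3.87 and 1.11 with shRBM10#1, and 1.07 and 1.27 with shRBM10#2. Its partner KRT14 was at 3.68 and 4.04 TPM with shScr, 4.87 and 1.37 with shRBM10#1, and 0.38 and 0.22 with shRBM10#2. The shRBM10#1 libraries disagreed for both genes: replicate 1 was close to or above shScr and replicate 2 lay well below it. With shRBM10#2, the log2 FC was -1.8 ± 0.388 (FDR = 0.00566) for KRT5 and -3.62 ± 0.541 (FDR = 0.000788) for KRT14, and with shRBM10#1 it was -0.72 ± 0.359 (FDR = 0.208) and -0.26 ± 0.389 (FDR = 0.711). KRT14 had 114 and 113 counts with shScr but 13 and 8 with shRBM10#2. It passed the count filter through the shScr and shRBM10#1 libraries, and its FDR does not account for that. KRT15, a type I basal keratin without a fixed partner, was at 69.5 and 67.4 TPM with shScr, 110 and 137 with shRBM10#1, and 84.9 and 87.2 with shRBM10#2. It rose by 0.94 ± 0.105 (FDR = 0.000124) and 0.38 ± 0.105 (FDR = 0.0197), and the 3 conditions did not overlap. The call with shRBM10#2 was lost without shScr replicate 2 (FDR = 0.163), shRBM10#2 replicate 1 (0.077) or shRBM10#2 replicate 2 (0.131). KRT17, a type I keratin of basal and injured epithelium, averaged 1.43 TPM (0.76 to 2.13) and did not pass in any comparison. TP63, the transcription factor that defines basal cells, was at 0.9 to 1.39 TPM and did not pass either.

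**Figure D4:**
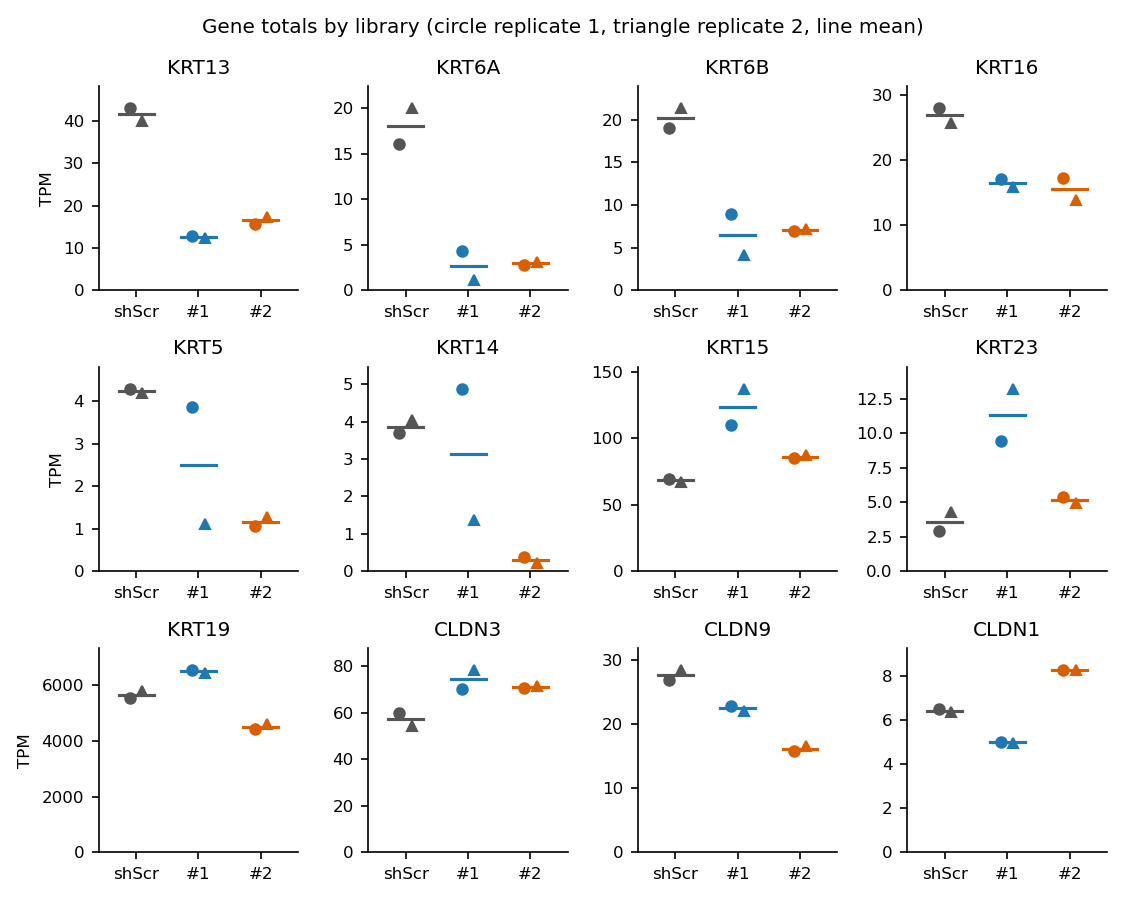
TPM by library (vertical axes from 0; circles replicate 1, triangles replicate 2, lines condition means) of 12 members in shScr, shRBM10#1 and shRBM10#2. KRT13, KRT6A, KRT6B and KRT16 are lower in all 4 knockdown libraries, and KRT5 and KRT14 are split between the shRBM10#1 libraries.

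The other keratins included changes in both directions. KRT23, a type I keratin of glandular and tumor cells, was at 2.9 and 4.29 TPM with shScr, 9.42 and 13.2 with shRBM10#1, and 5.4 and 4.96 with shRBM10#2. It rose by 1.76 ± 0.178 (FDR = 5.78e-05) and 0.59 ± 0.187 (FDR = 0.0351), and its knockdown libraries all lay above shScr. The smaller rise was lost without shScr replicate 1 (FDR = 0.245), shRBM10#2 replicate 1 (0.156) or shRBM10#2 replicate 2 (0.0985). KRT80, a type II keratin tied to desmosomes, was at 59 and 64.5 TPM with shScr, 59.2 and 58.6 with shRBM10#1, and 47.4 and 45.2 with shRBM10#2, and fell by 0.35 ± 0.063 on the log2 scale with shRBM10#2 (FDR = 0.00207). That call was lost without shRBM10#2 replicate 2 (FDR = 0.0649). KRT10, the type I keratin of the upper epidermis, was at 26.4 and 21.6 TPM with shScr, 21.3 and 22.9 with shRBM10#1, and 28.9 and 29.8 with shRBM10#2, and its log2 FC of -0.04 ± 0.122 (FDR = 0.878) and 0.34 ± 0.119 (FDR = 0.0553) did not pass. KRT1, the partner of KRT10, had 19 and 10 counts with shScr, 8 and 17 with shRBM10#1, and 0 and 0 with shRBM10#2. Against a floor of 3 counts per library, its CPM was at least 5.43-fold lower with shRBM10#2 than with shScr (FDR = 0.00316). KRT1 passed the count filter only through the shScr and shRBM10#1 libraries, and this FDR does not account for that.

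KRT3, KRT78 and KRT9, all at low levels, each passed in at least 1 comparison. KRT3, the type II keratin of the cornea, was at 5.22 and 4.42 TPM with shScr, 5.68 and 6.34 with shRBM10#1, and 3.35 and 3.45 with shRBM10#2. Neither shRNA passed for KRT3 (FDR = 0.1 and 0.0512), and its partner KRT12 had at most 3 counts. KRT78, a type II keratin of stratified epithelia, was at 3.73 and 3.93 TPM with shScr, 3.55 and 3.71 with shRBM10#1, and 2.96 and 2.44 with shRBM10#2. Its fall by 0.45 ± 0.15 on the log2 scale with shRBM10#2 (FDR = 0.0408) was lost in 7 of 13 alternatives, among them DESeq2 (FDR = 0.0932) and each of shScr replicate 1, shScr replicate 2, shRBM10#2 replicate 1 and shRBM10#2 replicate 2 left out (0.163, 0.0777, 0.0751 and 0.311). KRT9, the type I keratin of palm and sole, was at 0.98 and 0.81 TPM with shScr, 0.32 and 0.42 with shRBM10#1, and 0.35 and 0.34 with shRBM10#2. Its log2 FC was -1.18 ± 0.359 (FDR = 0.0462) and -1.32 ± 0.359 (FDR = 0.0181), resting on 14 to 45 counts per library. The KRT9 call with shRBM10#1 passed in 3 of 13 alternatives. It was lost without any one of the 6 libraries (FDR of 0.0803 to 0.228), in DESeq2 (0.139), with effective lengths as an offset (0.0549) and in a fit on the 4 libraries compared (0.0623), and the call with shRBM10#2 without shScr replicate 1 (0.142), shRBM10#2 replicate 1 (0.11) or shRBM10#2 replicate 2 (0.13). Hair keratins past the filter were at the bottom of the range and did not pass, with KRT81 at a mean of 0.763 TPM (0.46 to 1.05), KRT86 at 0.668 (0.45 to 0.86) and KRT32 at 0.403 (0.29 to 0.59). KRT81 and KRT86 share 35.9% and 30.7% of their 75-base windows with other genes, chiefly each other, so their separate values are uncertain.

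CLDN4 and CLDN7, which held most claudin RNA, passed with neither shRNA, while CLDN3 rose with both. CLDN4, a sealing claudin of ducts and airways, was at 539 and 559 TPM with shScr, 534 and 560 with shRBM10#1, and 501 and 492 with shRBM10#2, with a log2 FC of 0.08 ± 0.0687 (FDR = 0.472) and -0.09 ± 0.0687 (FDR = 0.36). CLDN7, a claudin also found along the lateral membrane, was at 512 and 540 TPM with shScr, 446 and 467 with shRBM10#1, and 462 and 439 with shRBM10#2. All 4 knockdown libraries of CLDN7 lay below both shScr libraries, as did those of 14.5% of all genes, and the log2 FC of -0.12 ± 0.0667 (FDR = 0.271) and -0.11 ± 0.0667 (FDR = 0.236) did not pass. CLDN3, a sealing claudin, was at 60 and 54.3 TPM with shScr, 70.4 and 78.4 with shRBM10#1, and 70.7 and 71.5 with shRBM10#2. It rose by 0.46 ± 0.0973 (FDR = 0.00781) and 0.36 ± 0.0972 (FDR = 0.0179), with all knockdown libraries above shScr, as for 14.9% of all genes. The rise of CLDN3 with shRBM10#1 was lost without shScr replicate 2 (FDR = 0.0862) or shRBM10#1 replicate 2 (0.0626), and with shRBM10#2 without shScr replicate 2 (0.152), shRBM10#2 replicate 1 (0.0847) or shRBM10#2 replicate 2 (0.125).

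CLDN9, a claudin of the inner ear and airway, was at 26.9 and 28.5 TPM with shScr, 22.9 and 22.1 with shRBM10#1, and 15.8 and 16.6 with shRBM10#2. It fell by 0.72 ± 0.0785 on the log2 scale with shRBM10#2 (FDR = 0.000134), while its log2 FC of -0.21 ± 0.0772 with shRBM10#1 (FDR = 0.0893) did not pass. CLDN1, the barrier claudin of the epidermis, was at 6.5 and 6.39 TPM with shScr, 5.02 and 4.98 with shRBM10#1, and 8.29 and 8.28 with shRBM10#2. Its shRBM10#1 libraries lay below shScr and its shRBM10#2 libraries above, with a log2 FC of -0.27 ± 0.104 (FDR = 0.101) and 0.42 ± 0.0993 (FDR = 0.00928). The rise was lost without shScr replicate 2 (FDR = 0.0775), shRBM10#2 replicate 1 (0.0766) or shRBM10#2 replicate 2 (0.0876). CLDN12, which lacks the PDZ-binding end of most claudins, was at 15.1 and 18.4 TPM with shScr, 15 and 14.4 with shRBM10#1, and 17.5 and 18.7 with shRBM10#2, and passed with neither shRNA (FDR = 0.459 and 0.0892). CLDN23 averaged 5.82 TPM (4.44 to 6.63), CLDN15 1.82 TPM (1.45 to 2.52) and CLDN8 0.548 TPM (0.31 to 0.91), and none of them passed in any comparison.

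CLDN3 and CLDN4 are neighbors on chromosome 7, and CLDN3 rose with both shRNAs while CLDN4 passed with neither. Whether their responses differ from each other was not tested. The pair was chosen after these values were seen, and the promoters of both genes are shown. They are the RefSeq windows of 250 bases before to 50 bases after the start (GRCh38.p14), with CLDN3 on the minus strand and CLDN4 on the plus strand, and capitals mark matches on either strand to GGGCGG (the GC box) or TGANTCA (the AP-1 site).
CLDN3 (chr7:73770221-73770520): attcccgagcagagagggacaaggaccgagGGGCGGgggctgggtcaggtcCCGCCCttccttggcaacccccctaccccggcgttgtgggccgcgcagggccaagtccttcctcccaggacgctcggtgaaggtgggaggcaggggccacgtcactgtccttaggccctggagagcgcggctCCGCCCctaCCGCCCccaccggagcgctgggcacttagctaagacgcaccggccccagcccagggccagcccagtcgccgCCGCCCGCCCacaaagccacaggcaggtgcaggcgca
CLDN4 (chr7:73830746-73831045): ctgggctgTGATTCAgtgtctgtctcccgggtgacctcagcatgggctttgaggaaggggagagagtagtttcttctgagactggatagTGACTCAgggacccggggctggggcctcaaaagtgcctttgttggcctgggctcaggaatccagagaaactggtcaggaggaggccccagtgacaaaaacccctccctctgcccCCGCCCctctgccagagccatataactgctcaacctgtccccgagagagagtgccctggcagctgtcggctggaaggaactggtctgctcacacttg
The CLDN3 window holds 6 matches to GGGCGG, some of which overlap, and none to TGANTCA, whereas the CLDN4 window holds 1 match to GGGCGG and 2 to TGANTCA. Of 35116 promoter windows of the same length, 45% hold GGGCGG and 7.71% hold TGANTCA. Neither window holds TATAAA (11.5% of windows) or AACCNGTT, the grainyhead site (1.73%). Promoter entries were matched for 13 of the 32 tested members, and none of the 13 held AACCNGTT. Such matches describe the letters of these windows only.

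All keratins with a position in GENCODE 29 lie in 2 clusters, 27 on chromosome 12 and 29 on chromosome 17, and neighbors could differ in direction (positions are of GRCh38, since the files carry none). On chromosome 17, KRT13 (41500981 to 41505705), KRT15 (41513743 to 41522529) and KRT19 (41523617 to 41528308) are next to each other among the tested members, and KRT13 fell with both shRNAs, KRT15 rose with both and KRT19 passed in opposite directions. On chromosome 12, KRT6B (52446651 to 52452126), KRT6A (52487174 to 52493257) and KRT5 (52514575 to 52520687) are consecutive tested members, all of which fell with shRBM10#2, as did 13.9% of all genes. Other tested members on chromosome 12, among them KRT7, KRT86, KRT81, KRT4, KRT8 and KRT18, did not pass with shRBM10#2. Both runs of neighbors were picked after these values were seen.

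The 2 shRNAs were then compared with each other. Of the 32 tested members, 16 differed between shRBM10#2 and shRBM10#1, beside 25.5% of all genes, with 12 lower and 4 higher with shRBM10#2, beside 14.5% and 11%. Only KRT1, KRT14 and KRT23 also met the log2 FC criterion, beside 1.19% of all genes. For KRT1 and KRT14, the FDR does not account for the count filter, which they passed through libraries other than those of shRBM10#2. KRT14 was lower with shRBM10#2 by a log2 FC of -3.36 ± 0.551 (FDR = 0.00126) and KRT23 by -1.17 ± 0.167 (FDR = 0.000608). KRT19 differed by -0.56 ± 0.0645 (FDR = 0.000216), KRT15 by -0.56 ± 0.104 (FDR = 0.00263) and KRT3 by -0.86 ± 0.154 (FDR = 0.00219). CLDN1 was higher with shRBM10#2 by 0.69 ± 0.101 (FDR = 0.000679) and CLDN9 lower by -0.51 ± 0.079 (FDR = 0.00095). These 7 and KRT1 passed in every alternative that could be fitted, and the other 8 of the 16 lost the call in at least 1. KRT1 could be fitted in 10 and KRT14 in 11 of the 12 alternatives. The effects on KRT6A (0.16 ± 0.368, FDR = 0.781), KRT6B (0.11 ± 0.228, FDR = 0.771) and KRT16 (-0.12 ± 0.122, FDR = 0.511) did not differ detectably between the shRNAs. Without shRBM10#1 replicate 2, the difference turned to -0.54 (FDR = 0.0218) for KRT6A and -0.35 (FDR = 0.0337) for KRT6B with the sign changed, so this comparison of the shRNAs in KRT6A and KRT6B depends on that library.

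The knockdown libraries were also taken as 1 group of 4. RBM10 itself did not pass in this comparison (log2 FC -0.99 ± 0.306, FDR = 0.146). Its level differed between the shRNAs, and whether that is why it did not pass was not tested. Here 4 members passed an FDR below 0.05, beside 1.62% of all genes (0.542% higher and 1.08% lower). All 4 were lower, and 3 met both criteria, beside 0.394% of all genes (0.232% lower). The 4 were KRT6A (log2 FC -2.61 ± 0.328, FDR = 0.0134), KRT6B (-1.51 ± 0.215, FDR = 0.0195), KRT13 (-1.44 ± 0.137, FDR = 0.00547) and KRT16 (-0.68 ± 0.122, FDR = 0.0368). When shScr replicate 1 or shScr replicate 2 was left out, no gene passed in this comparison by edgeR (1383 and 1216 genes at an unadjusted p below 0.05), KRT6A then having an FDR of 0.224 either way, and KRT16 was also lost without shRBM10#1 replicate 2 (FDR = 0.0732).

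RBM10 acts on splicing, so the shares of isoforms were compared in the 7 members with at least 2 isoforms past the filter (CLDN7, CLDN12, CLDN15, KRT8, KRT13, KRT18 and KRT80). None passed with shRBM10#1 by edgeR (0 of 7 at an unadjusted p below 0.05) or by limma's diffSplice, beside 0.172% of 6405 genes, and KRT8 passed with shRBM10#2 (FDR = 0.0162), beside 2.75%. The change in KRT8 concerned NM_001256282, a minor isoform that made up 0.88% and 0.58% of KRT8 with shScr, 0.62% and 0.64% with shRBM10#1, and 0.39% and 0.36% with shRBM10#2. Isoform NM_002273 made up 99.12% to 99.64% of KRT8 in every library. The KRT8 call was kept without shScr replicate 2 and lost without any one of the other 5 libraries. In CLDN7, NM_001307 made up 29.5% and 29.76% with shScr, 31.04% and 28.73% with shRBM10#1, and 39.59% and 38.93% with shRBM10#2, and the rest was nearly all NM_001185022. Both shRBM10#2 libraries stood above the other 4, although the test missed the threshold (edgeR FDR = 0.0708; limma FDR = 0.00339).

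Genes whose products anchor keratin filaments were compared from lists of textbook members. Of 8 linkers of keratin to hemidesmosomes or the cell cortex, 5 fell with shRBM10#1 and 7 with shRBM10#2, beside 6.91% and 13.9% of all genes, and the others did not pass. PLEC, the plakin that ties keratins to hemidesmosomes, fell by 0.59 ± 0.0822 (FDR = 0.000544) and 0.9 ± 0.0826 on the log2 scale (FDR = 6.25e-05), from 59.8 and 74.8 TPM with shScr to 45.8 and 37.7 with shRBM10#1 and 35.7 and 32.8 with shRBM10#2. ITGB4, the hemidesmosomal integrin, fell by 0.44 ± 0.0631 (FDR = 0.000633) and 0.58 ± 0.0632 (FDR = 0.000128). DST, which encodes the plakin BPAG1, fell by 0.56 ± 0.0796 (FDR = 0.000565) and 0.31 ± 0.0787 (FDR = 0.0126). COL17A1, a transmembrane collagen of hemidesmosomes at under 1 TPM, fell by 1.96 ± 0.363 (FDR = 0.00336) and 2.44 ± 0.374 (FDR = 0.000927). The fall of DST with shRBM10#2 was lost without shScr replicate 2 (FDR = 0.101) or shRBM10#2 replicate 2 (0.194), or with effective lengths as an offset (0.0508). Medians over the 8 linkers were -0.485 and -0.447, beside 0.008 and 0.005 over all genes.

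Of 13 desmosome genes, 7 were tested, of which 2 fell and the other 5 did not pass with shRBM10#1, and 5 fell and 1 rose with shRBM10#2, with medians of -0.131 and -0.29. Over all genes, 6.91% fell with shRBM10#1, and 13.9% fell and 12% rose with shRBM10#2. DSC2, a desmosomal cadherin, fell by 0.59 ± 0.0854 (FDR = 0.000671) and 0.44 ± 0.0842 (FDR = 0.00296). DSP, the plakin that ties keratins to desmosomes, fell by 0.33 ± 0.085 (FDR = 0.0205) and 0.38 ± 0.085 (FDR = 0.00637). JUP and PKP3, plaque proteins of the armadillo family, fell with shRBM10#2 by 0.32 ± 0.0618 (FDR = 0.00325) and 0.29 ± 0.0677 (FDR = 0.00849). The DSP call with shRBM10#1 was lost without shScr replicate 2 (FDR = 0.186) or shRBM10#1 replicate 2 (0.107), and with shRBM10#2 without shScr replicate 2 (0.0632) or shRBM10#2 replicate 2 (0.124). The calls of JUP and PKP3 were lost without either shRBM10#2 library (FDR of 0.0641 to 0.121). The cadherins of stratified epithelium, DSG1, DSG3, DSC1 and DSC3, stayed at or below 0.04 TPM.

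**Figure D5:**
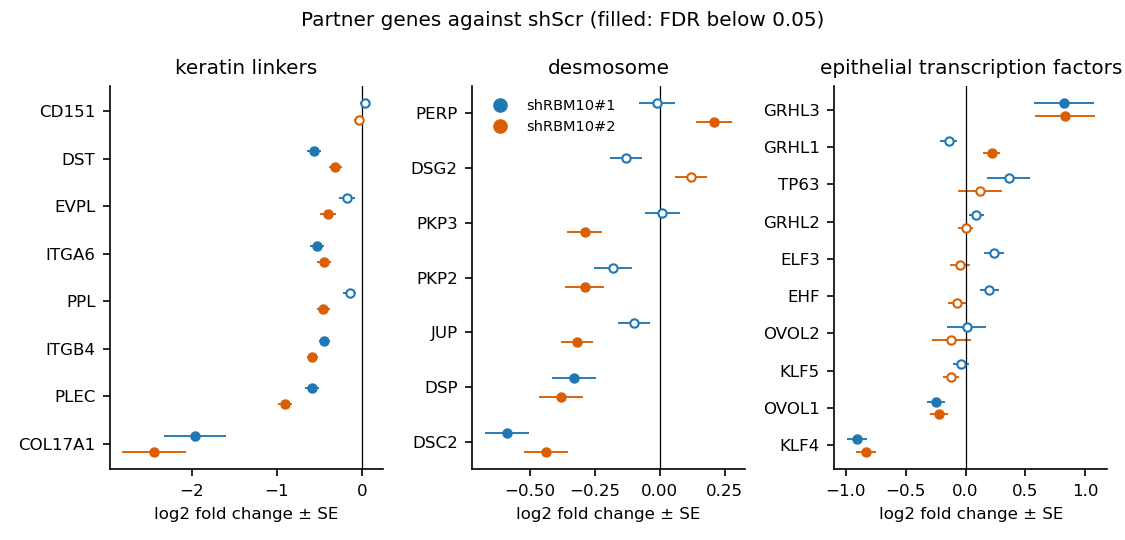
Log2 FC against shScr (horizontal axes, ± SE) of tested keratin linkers, desmosome genes and epithelial transcription factors with shRBM10#1 (blue) and shRBM10#2 (orange); filled symbols passed an FDR below 0.05. COL17A1, PLEC, ITGB4 and KLF4 lie left of 0 with both shRNAs.

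Of 20 tight junction partners of the claudins tested, 1 rose and 2 fell with shRBM10#1, and 3 rose and 4 fell with shRBM10#2, beside 14.0% and 25.9% of all genes that passed in either direction, with medians of 0.077 and -0.058. TJP1, the scaffold that claudins bind, fell by 0.48 ± 0.0819 (FDR = 0.00201) and 0.24 ± 0.0813 (FDR = 0.0478), and the latter call was lost without any 1 shScr or shRBM10#2 library (FDR of 0.118 to 0.252). OCLN, the tight junction protein occludin, rose with shRBM10#2 by 0.43 ± 0.0777 (FDR = 0.00232), as did the polarity kinase gene PRKCI by 0.29 ± 0.0621 (FDR = 0.00583). Without shRBM10#2 replicate 1, the calls of OCLN (FDR = 0.0538) and PRKCI (0.0767) with that shRNA were lost, and without shRBM10#2 replicate 2 that of PRKCI (0.085) was. Of 9 adherens junction genes, 1 rose with shRBM10#1, and 2 rose and 1 fell with shRBM10#2, beside the same shares of all genes. CDH1, the E-cadherin gene, did not pass (FDR = 0.849 and 0.631), and PVRL1, a nectin, rose with both shRNAs by 0.59 ± 0.0768 (FDR = 0.000329) and 0.35 ± 0.0769 (FDR = 0.00596). With shRBM10#2, CTNNA1, which links cadherins to actin, rose by 0.43 ± 0.075 (FDR = 0.00183), and MLLT4, the nectin-binding scaffold afadin, fell by 0.33 ± 0.0684 (FDR = 0.00434). The PVRL1 and MLLT4 calls with shRBM10#2 were lost without either of its libraries (FDR of 0.0507 to 0.0806).

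Of the other intermediate filaments, VIM, the filament of mesenchymal cells, was at 0.09 to 0.74 TPM, and DES, GFAP, NEFL, NEFM and PRPH stayed at or below 0.25 TPM. Of 8 tested, none passed with shRBM10#1 by edgeR or DESeq2 (1 at an unadjusted edgeR p below 0.05), whereas 1 rose and 2 fell with shRBM10#2, beside 12% and 13.9% of all genes. The nuclear lamins LMNA and LMNB2 fell with shRBM10#2 by 0.37 ± 0.0649 (FDR = 0.00186) and 0.38 ± 0.0706 (FDR = 0.00255), and INA, a neuronal filament, rose by 0.24 ± 0.0775 (FDR = 0.0349). The calls of LMNA, LMNB2 and INA were lost without shRBM10#2 replicate 1 (FDR = 0.0535), shRBM10#2 replicate 2 (0.0592) and any 1 shScr or shRBM10#2 library (0.0658 to 0.266), in that order.

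Of 10 epithelial transcription factors, 1 rose and 2 fell with shRBM10#1, and 2 rose and 2 fell with shRBM10#2, beside 14.0% and 25.9% of all genes that passed in either direction, with medians of 0.049 and -0.059. KLF4, a factor of differentiating stratified epithelium, was at 33.9 and 34.4 TPM with shScr, 16.6 and 17.4 with shRBM10#1, and 19.4 and 17.7 with shRBM10#2. It fell by 0.91 ± 0.0827 (FDR = 2.91e-05) and 0.83 ± 0.0819 on the log2 scale (FDR = 9.2e-05) without overlap and passed in all 13 alternatives with each shRNA. GRHL3, a grainyhead factor of barrier formation at 1.79 to 3.79 TPM, rose with both shRNAs by 0.82 ± 0.251 (FDR = 0.0466) and 0.83 ± 0.249 (FDR = 0.0272), and GRHL1 rose with shRBM10#2 by 0.22 ± 0.0704 (FDR = 0.0337). OVOL1, a repressor in epithelial differentiation, fell by 0.25 ± 0.0757 (FDR = 0.0456) and 0.22 ± 0.0751 (FDR = 0.0448). OVOL1 passed in 3 of 13 alternatives with shRBM10#1 and 5 of 13 with shRBM10#2, and its calls were lost without any 1 library of the groups compared (FDR of 0.0675 to 0.251). The GRHL1 call was lost without any 1 shScr or shRBM10#2 library (FDR of 0.058 to 0.21). The GRHL3 calls were lost without either shScr library (FDR of 0.0978 to 0.229), without shRBM10#1 replicate 2 (0.396) or without shRBM10#2 replicate 1 (0.265).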

How the data were processed

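RNA-Seq of 6 libraries (51398 isoforms per library) was analyzed. Per the submitters' processing notes, STAR 2.4, RSEM 1.2.29 and edgeR were used with build hg19; read length, strand and pooling are not given in the sources used here. The authors deposited RSEM expected counts (estimated, not always whole), TPM, and each isoform's percent of its gene; other deposited columns were not used. Counts and TPM were summed by gene symbol, and counts were rounded. RSEM splits reads between similar genes, which affects KRT6A, KRT6B, KRT6C, KRT81 and KRT86, among others. Further tested members share 75-base windows with other genes, such as KRT14 (10%, KRT16 included), KRT16 (7.74%, KRT14 included), CLDN12 (9.17%) and CLDN7 (8.17%).

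Genes past filterByExpr (minimum count 10; 14217 genes) were scaled by TMM (factors 0.979 to 1.025) and tested with the quasi-likelihood test of edgeR 4.0.16 (R 4.3.3) over all 6 libraries, with 1 coefficient per condition and Benjamini-Hochberg adjustment. Isoform shares were tested with diffSpliceDGE (Simes). DESeq2 1.42.0 and limma 3.58.1 gave alternatives, beside other size factors, other filters, effective lengths as an offset, a replicate block, a fit on the libraries compared alone, and 1 library left out, and Python 3.11.15 the exact permutation tests. A log2 FC SE is the log2 FC divided by the root of its F statistic. The procedures were tested on simulated counts, with the same spread in every library. There the changed genes were well expressed and changed by a log2 FC of at least 1. Smaller changes and changed genes with few counts were not covered. The replicates of a condition were not copies of each other, since the chi-square of their counts, divided by its degrees of freedom, was 9.78 (shScr), 12.47 (shRBM10#1) and 3.237 (shRBM10#2). Intervals of counting cover counting error only.

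All tested members were named; values in every library are given for members with an FDR below 0.05 in any comparison or a mean of at least 10 TPM. From each list, up to 4 genes with the smallest FDR with either shRNA were named. A gene that this rule selects is not reported here. The members and lists were chosen with earlier results of these data known.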

Additional observations from a re-analysis of the deposited data

Results flagged for a closer look

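Among the 4 knockdown libraries, 1 library stood apart in 2 of the 32 tested members, by a test of its gap to the next library that flags about 1 in 20 groups by chance. CLDN3 was highest in shRBM10#1 replicate 2, at 78.4 TPM, where the gap was 0.863 of the range. KRT5 was highest in shRBM10#1 replicate 1, at 3.87 TPM, where the gap was 0.929 of the range.

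The effect of shRBM10#2 minus that of shRBM10#1 passed an FDR below 0.05 in edgeR for 16 members. It is the same test as the comparison of the shRNAs above, not a further one. The shScr libraries cancel out of this difference and enter only the shared estimate of the spread. Among claudins this log2 difference was 0.69 for CLDN1, 0.27 for CLDN12 and -0.51 for CLDN9. Among keratins it was positive for KRT10 (0.37) and KRT13 (0.36). It was negative for KRT14 (-3.36), KRT23 (-1.17), KRT3 (-0.86), KRT15 (-0.56), KRT19 (-0.56), KRT78 (-0.47), KRT80 (-0.38), KRT4 (-0.3), KRT7 (-0.3) and KRT8 (-0.24). For KRT1, at 0 counts with shRBM10#2, the fitted difference of -6.68 depends on the prior count.

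The same difference among the named list genes was positive for OCLN (0.52), GRHL1 (0.36), CTNNA1 (0.29), INA (0.29), DST (0.25) and TJP1 (0.24). It was negative for LMNB2 (-0.39), PLEC (-0.32), PKP3 (-0.3), PVRL1 (-0.24), JUP (-0.22) and LMNA (-0.22), and for RBM10 itself it was -1.11.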

How the results depend on the processing

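With 2 libraries per condition, many smaller calls were lost when 1 library was left out, which leaves 1 in its condition. A lost call need not mean a changed effect, since fewer libraries also make the test weaker. The log2 FC of CLDN1 with shRBM10#2 stayed at 0.42 without shRBM10#2 replicate 1 or replicate 2. That of KRT23 with shRBM10#2 went from 0.59 to 0.41 without shScr replicate 1. Of the called members, 5 of 10 with shRBM10#1, 8 of 16 with shRBM10#2 and 8 of 16 between the shRNAs passed in every alternative that could be fitted, as did none of the 4 with the knockdown libraries pooled. Of the 82 member results not past the threshold, 35 changed sign and 19 passed under some alternative. The depth leaves members under 10 counts untested.

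With DESeq2, 105 genes met both criteria with shRBM10#2 (185 in edgeR) and 85 between the shRNAs (169), and the pooled comparison gave 718 genes (230), 108 of them meeting both criteria (56). With at least 10 counts in every library, 1 member met both criteria between the shRNAs (3). KRT1 and KRT14, with 0 and 8 counts in their lowest libraries, were not tested under that filter. With the mean of the 2 shRNA coefficients in place of a pooled group, 2610 genes passed and 193 met both criteria, as did 12 and 8 members (4 and 3). The cause of the other differences was not tested.

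Replicate numbers did not pair the libraries, since same-numbered libraries deviated with correlations of -0.004, -0.019 and -0.014. A fit with the replicate number as a block gave 52 genes in the pooled comparison, 17 meeting both criteria, and 4 and 83 genes with changed isoform usage with shRBM10#1 and shRBM10#2. Under the block KRT9 with shRBM10#1, KRT78 with shRBM10#2, KRT8 between the shRNAs and KRT16 in the pooled comparison lost their calls. With effective lengths as an offset, which adjusts for the shorter fragments of shScr replicate 2, the members that lost a call were KRT9 with shRBM10#1, KRT78 with shRBM10#2 and KRT10 between the shRNAs.

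Isoform usage by limma gave 42 genes with shRBM10#1 (11 in edgeR) and 571 with shRBM10#2 (176), with 2 members in place of 1, and a minimum of 10 counts per library gave 7 genes with shRBM10#1.

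Leaving out 1 library at a time gave 985 to 2626 genes with shRBM10#1 and 153 to 330 meeting both criteria, with 6 to 11 and 4 to 7 members. With shRBM10#2 it gave 954 to 4566 genes and 102 to 213, with 8 to 19 and 6 to 7 members. Between the shRNAs it gave 918 to 3736 genes and 75 to 169, with 8 to 18 and 3 to 4 members. Pooled, it gave 0 to 413 genes and 0 to 68, with 0 to 5 and 0 to 4 members. Usage gave 5 to 39 genes with shRBM10#1 (0 members) and 34 to 151 with shRBM10#2 (0 to 1 members). The log2 difference in the KRT8 to KRT18 ratio ranged from -0.092 to 0.002 with shRBM10#1, reversed only without shRBM10#1 replicate 2, from -0.142 to -0.076 with shRBM10#2, and from -0.11 to -0.044 for all knockdown libraries.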
